A study of Mus musculus with 9 samples.

Results

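Voltage-gated sodium channels, the sodium pump and the pacemaker channels set the electrical rhythm of the heart, and 5 of their genes were followed across birth in mouse heart: *Scn4a*, *Scn4b*, *Hcn2*, *Hcn4* and *Atp1b1*. They were taken by gene symbol from the 48820 genes of the deposited table. Of the 5, *Hcn2* and *Scn4a* were higher at P7d than at E18.5d, *Hcn4* was lower from P1d on, *Atp1b1* stayed within 88.8 to 115 FPKM in all hearts, and *Scn4b* was close to the limit of detection.

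RNA was sequenced from whole hearts of untreated wild-type C57BL/6J mice, with 3 hearts each at E18.5d (late fetal), P1d (the day after birth) and P7d (the end of the first week). The labels give every mouse as male and name the hearts of a stage biological replicates. The authors deposited FPKM, in which the fragments of a gene are divided by its length in kilobases and by the library's mapped fragments in units of 1e6. From the steps between low values, depth was estimated at 25.0 to 37.25 (E18.5d), 27.75 to 29.5 (P1d) and 35.5 to 45.5 (P7d) times 1e6 fragments per heart. Markers of cardiomyocytes were abundant in every heart. Their 8 genes summed to 19360 to 19980 FPKM at E18.5d, 22230 to 24860 FPKM at P1d and 23630 to 24920 FPKM at P7d. Every E18.5d heart was below every later heart in this sum. Other tissue was uneven between hearts. Airway and lung markers summed to 11.7 to 265 FPKM at E18.5d, 17.3 to 510 FPKM at P1d and 10.8 to 13.5 FPKM at P7d. Erythroid markers summed to 8418 to 22750, 12730 to 24730 and 8550 to 10410 FPKM at these stages. The part of all these markers in the levels below was not tested.

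The sex label did not hold for 4 of the 9 hearts. *Xist*, which silences an X chromosome in females, reached 58.0 to 97.0 FPKM in replicates 1 and 3 of E18.5d and replicates 2 and 3 of P7d, in which all 4 Y-linked genes examined were at 0. In the other 5 hearts *Xist* was at most 0.11 FPKM and the Y-linked genes were at least 9.74 FPKM. All 3 P1d hearts were among these 5, so part of the difference between P1d and the other stages cannot be told apart from sex. The members are therefore also given with *Xist* status in the fit or without the 4 hearts, which leaves 1 heart at E18.5d and 1 at P7d, each assumed to vary like the P1d hearts.

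Cardiac excitation begins when sodium enters through a pore-forming alpha subunit, whose gating and placement are adjusted by small beta subunits. HCN channels open on hyperpolarization and carry the inward current that paces the sinoatrial node, where *Hcn4* is the main form, while *Hcn2* is also found in ventricular muscle. The Na,K-ATPase, made of a catalytic alpha and a glycoprotein beta subunit and tuned by FXYD proteins, restores the sodium and potassium gradients after each beat.

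To ask how transcript levels differed between stages, log2(FPKM + 1) was fitted with limma over all 9 hearts for the 13618 genes that averaged 1 FPKM or more. A gene is said to have risen or fallen where the Benjamini-Hochberg adjusted p was below 0.05, and changes are given on this log2 scale, which understates those of low genes, with their standard errors. *Scn4b* was not tested because its mean was 0.0400 FPKM. *Scn4a* and *Hcn2* passed the minimum only through P7d, the stage at which they were high, so how many of the tested members changed carries no weight. Among all tested genes, 12.5% rose and 36.9% fell between E18.5d and P7d, 18.4% rose and 27.6% fell from E18.5d to P1d, and 15.5% rose and 28.6% fell from P1d to P7d. The balance depended on scaling. Between E18.5d and P7d the counts were 1706 higher and 5025 lower in the deposited FPKM, but 2907 and 2838 after median-of-ratios scaling, which moved the median change of all genes from -0.17 to -0.017. Without the *Xist* hearts most genes that had risen or fallen no longer passed, so a loss there is not particular to a gene. In whole-heart RNA, fewer cells of a type and less RNA per cell cannot be told apart.

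**Figure D1:**
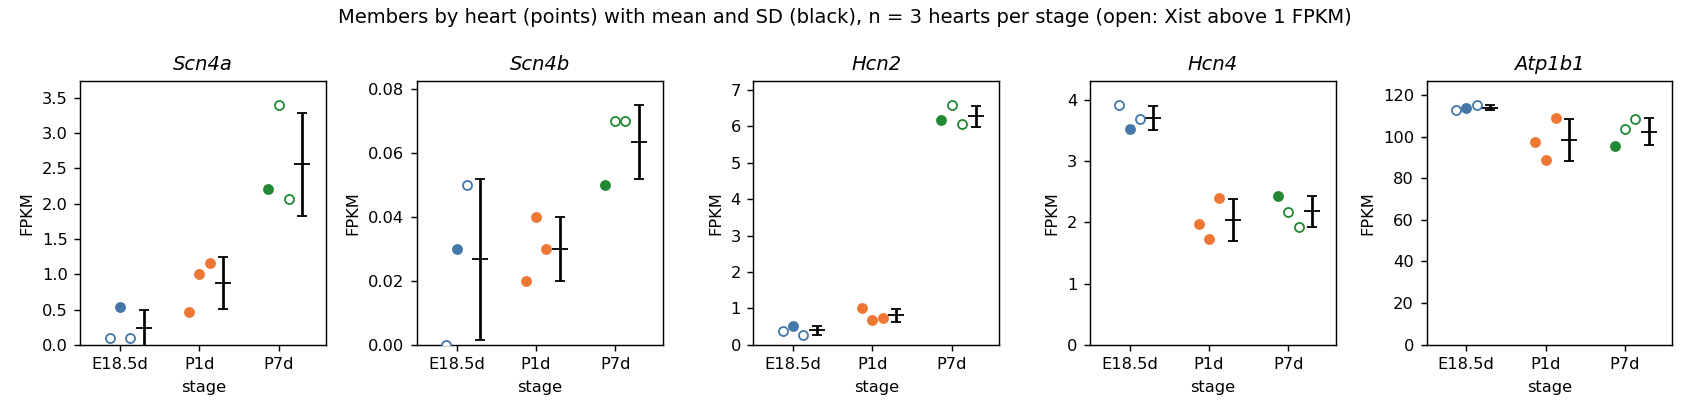
FPKM (y axes, each from 0) of the 5 genes in each heart at E18.5d, P1d and P7d, with the mean and SD of 3 hearts in black beside the points and open points for the 4 hearts with *Xist* above 1 FPKM. *Hcn2* at P7d, between 6.06 and 6.59 FPKM, stood clear of all earlier hearts, while *Hcn4* was highest at E18.5d, between 3.52 and 3.92 FPKM.

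*Scn4a* encodes the alpha subunit known as the sodium channel of skeletal muscle (chr11:106318592-106353288, minus strand, GRCm38; ENSMUSG00000001027.7). Its level in replicates 1 to 3 was 0.09, 0.53 and 0.10 FPKM in E18.5d hearts, 0.46, 1.01 and 1.16 FPKM in P1d hearts, and 2.21, 3.4 and 2.07 FPKM in P7d hearts. Every P7d heart was above every earlier heart, whereas the E18.5d and P1d hearts overlapped. The E18.5d heart at 0.53 FPKM was the one of its stage without *Xist*. Mean FPKM was 10.7 times as high at P7d as at E18.5d, a ratio that was 27.0 without E18.5d replicate 2 and 4.17 between the hearts without *Xist*. The log2 change was 1.52 ± 0.21 (limma adjusted p = 0.000372). The rise had 2 steps, of 0.60 ± 0.21 from E18.5d to P1d (limma adjusted p = 0.0436) and of 0.92 ± 0.21 from P1d to P7d (limma adjusted p = 0.0067). The first step lost its call with *Xist* in the fit (0.50, limma adjusted p = 0.185) and when any heart other than E18.5d replicate 2, P1d replicate 1 or P7d replicate 2 was left out (limma adjusted p = 0.0534 to 0.123), and without the 4 *Xist* hearts the change from E18.5d to P7d was 1.07 (limma adjusted p = 0.15).

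Markers of skeletal muscle were examined beside *Scn4a*. Of 19 such genes, 5 were tested and these 5 fell between E18.5d and P7d, against 36.9% of all genes, but *Mylpf*, *Tnnt3* and *Pvalb* among them passed the minimum only through E18.5d and P1d, when they were high. *Cacna1s*, the skeletal muscle calcium channel, was under the minimum, and its means of 0.223, 0.507 and 0.687 FPKM were higher after birth, with every later heart above every E18.5d heart. The summed level of the 19 genes was 18.7 to 25.3 FPKM in E18.5d hearts, 14.1 to 14.7 FPKM in P1d hearts and 7.48 to 9.13 FPKM in P7d hearts. *Pax7*, the transcription factor of muscle stem cells, was at 0 in every heart, and *Myod1*, which specifies the skeletal muscle lineage, did not exceed 0.02 FPKM.

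Of the 9 alpha subunit genes examined 4 were tested, and 2 rose between E18.5d and P7d, *Scn4a* and *Scn7a*, against 12.5% of all genes. Nothing is read from this count, since *Scn4a*, *Scn3a* and *Scn10a* reached a mean of 1 FPKM at only 1 or 2 stages. *Scn7a*, an atypical member of the family linked to sodium sensing, had a mean that went from 2.20 to 5.06 FPKM at P1d and 4.36 FPKM at P7d (0.75 ± 0.12 at P7d against E18.5d, limma adjusted p = 0.000973). *Scn10a*, known from sensory neurons, rose into P1d and fell after it: its means were 1.02, 1.49 and 0.983 FPKM, with a change of 0.30 ± 0.11 into P1d (limma adjusted p = 0.0430) and of -0.33 ± 0.11 out of it (limma adjusted p = 0.0335). Both calls were lost with *Xist* in the fit (0.26 and -0.28, limma adjusted p = 0.194 and 0.168), and the first was kept only without P1d replicate 2 when single hearts were left out. *Scn3a* was scattered within each stage, from 0.31 to 2.28 FPKM, and passed no test.

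*Scn4b* encodes a beta subunit that is joined to the alpha subunit by a disulfide bond (chr9:45138395-45154152, plus strand, GRCm38; ENSMUSG00000046480.5). Its level was 0, 0.03 and 0.05 FPKM in E18.5d hearts, 0.02, 0.04 and 0.03 FPKM in P1d hearts and 0.05, 0.07 and 0.07 FPKM in P7d hearts. The P7d hearts were above the P1d hearts and at or above the highest E18.5d heart. At the estimated depth these values stand for 0 to 7, 3 to 5 and 8 to 15 fragments per heart, and 3 fragments, the upper limit that a count of 0 allows, are worth 0.0141 to 0.0256 FPKM. These limits cover counting error only. When the filter on low values was dropped, the change from E18.5d to P7d was 0.051 (limma adjusted p = 0.170). This scale compresses differences between levels so close to 0. The estimated fragments of 3 hearts summed to 12, 12 and 36, and no test was made on them. These sums are not scaled to depth, while mean FPKM was 2.375 times as high at P7d as at E18.5d.

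The other beta subunits examined were also low. *Scn2b*, which like *Scn4b* is disulfide-linked to the alpha subunit, was at 0.16 to 0.53 FPKM and was not tested. *Scn3b*, which binds the alpha subunit without such a bond, had means of 1.35, 1.37 and 0.730 FPKM, and its difference of -0.44 ± 0.20 between E18.5d and P7d did not pass the test (limma adjusted p = 0.0901), except without P1d replicate 2 (limma adjusted p = 0.0104).

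The pacemaker channels differed in make-up between stages. *Hcn2* (chr10:79716634-79736108, plus strand; ENSMUSG00000020331.9) was higher and *Hcn4* (chr9:58823412-58863175, plus strand; ENSMUSG00000032338.8) lower at P7d than at E18.5d. They changed mainly in different steps, *Hcn4* before P1d and *Hcn2* after it. The 250 bases before their RefSeq starts are shown, read 5′ to 3′ in build GRCm38.p6. The *Hcn2* window is chr10:79716384-79716633 and the *Hcn4* window chr9:58822699-58822948, both on the plus strand. Capitals mark TGACCTT, the reverse complement of AAGGTCA, the core letters to which several nuclear receptors bind.

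Hcn2: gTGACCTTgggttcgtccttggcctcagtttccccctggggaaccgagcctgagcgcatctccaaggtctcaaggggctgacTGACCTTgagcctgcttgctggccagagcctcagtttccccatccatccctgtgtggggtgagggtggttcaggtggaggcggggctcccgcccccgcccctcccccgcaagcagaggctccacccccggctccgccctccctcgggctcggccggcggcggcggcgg

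Hcn4: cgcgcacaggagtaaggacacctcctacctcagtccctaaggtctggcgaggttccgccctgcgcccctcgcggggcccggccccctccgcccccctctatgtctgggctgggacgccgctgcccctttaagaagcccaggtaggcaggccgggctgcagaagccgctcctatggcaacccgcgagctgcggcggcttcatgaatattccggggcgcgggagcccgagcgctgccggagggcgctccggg

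The *Hcn2* window holds AAGGTCA in 2 places, at positions -249 and -168 relative to the start, and the second lies within TCAAGGTCA, the longer form recognized by estrogen-related receptors. The *Hcn4* window holds neither. On either strand, AAGGTCA occurs in 4.09% and TCAAGGTCA in 0.375% of 32536 RefSeq windows of this length. The GC box GGGCGG, found in 33.0% of windows, occurs in both. The E-box CANNTG, found in 66.2% of windows, occurs in the *Hcn2* window alone of the 5. None of the 5 windows holds, on either strand, the GATA motif AGATAA (9.97% of windows), the M-CAT motif CATTCC (12.6% of windows), the MEF2 motif TATTTATA (1.57% of windows) or the TATA box TATAAA (12.3% of windows). All 5 genes were in the RefSeq table, and the *Scn4a*, *Scn4b* and *Atp1b1* windows hold no AAGGTCA. Both windows are rich in G and C, at 70.4% for *Hcn2* and 71.2% for *Hcn4* against a median of 52.4%. The RefSeq start of *Hcn4* lies 463 bases from that of the GENCODE M21 annotation, that of *Scn4a* 3898 bases and that of *Scn4b* 229 bases. The *Scn4a* window and most of the *Scn4b* window lie within the genes as GENCODE places them. These motifs were chosen after the sequences were seen, and a match describes letters, not binding. Only the letters given were searched for, so variants of a motif, such as other forms of the TATA box, were not counted.

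*Hcn2* was at 0.39, 0.52 and 0.28 FPKM in the E18.5d hearts, 1.01, 0.68 and 0.74 FPKM in the P1d hearts, and 6.18, 6.59 and 6.06 FPKM in the P7d hearts. The 3 stages did not overlap, and the P7d hearts were close together. From E18.5d to P7d it rose by 2.38 ± 0.11 (limma adjusted p = 7.1e-07), with a mean FPKM 15.8 times as high. Most of the rise came after P1d: the change was 0.37 ± 0.11 from E18.5d to P1d (limma adjusted p = 0.0230) and 2.01 ± 0.11 from P1d to P7d (limma adjusted p = 6.27e-06). Without the 4 *Xist* hearts, the change from E18.5d to P7d was 2.24 (limma adjusted p = 0.0296) and that from P1d 1.99 (limma adjusted p = 0.0351). The smaller step before P1d lost its call with *Xist* in the fit (0.32, limma adjusted p = 0.125) and when E18.5d replicate 1, E18.5d replicate 3 or P1d replicate 1 was left out (limma adjusted p = 0.0505 to 0.0757).

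*Hcn4* was at 3.92, 3.52 and 3.69 FPKM in the E18.5d hearts, 1.98, 1.73 and 2.40 FPKM in the P1d hearts, and 2.44, 2.17 and 1.93 FPKM in the P7d hearts. All E18.5d hearts were above all later hearts, and the P1d and P7d hearts overlapped. *Hcn4* fell by 0.64 ± 0.11 from E18.5d to P1d (limma adjusted p = 0.00126) and was lower by 0.57 ± 0.11 at P7d than at E18.5d (limma adjusted p = 0.00215). Between P1d and P7d the difference was 0.07 ± 0.11 (limma adjusted p = 0.632). Under 4 rescalings the change at P7d stayed between -0.61 and -0.41, with its call. With *Xist* in the fit, the change at P1d was -0.67 (limma adjusted p = 0.00832). Without the 4 *Xist* hearts it was -0.58 (limma adjusted p = 0.129), and that at P7d was -0.39 (limma adjusted p = 0.356).

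In FPKM, which allows genes of different length to be set side by side, *Hcn4* made up 89.0% ± 3.29 (SD, n = 3) of the summed *Hcn2*, *Hcn3* and *Hcn4* transcripts in E18.5d hearts, 67.9% ± 3.37 in P1d hearts and 25.5% ± 2.23 in P7d hearts. *Hcn2* made up 9.51% ± 2.87, 27.2% ± 5.52 and 73.6% ± 2.21 at the same stages. *Hcn4* was above *Hcn2* in every E18.5d and P1d heart and below it in every P7d heart. The sum of the 3 genes was 4.17 ± 0.139 FPKM in E18.5d hearts, 2.99 ± 0.404 FPKM in P1d hearts and 8.53 ± 0.437 FPKM in P7d hearts. *Hcn3* did not exceed 0.22 FPKM. These shares follow from the levels above and were not tested separately.

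**Figure D2:**
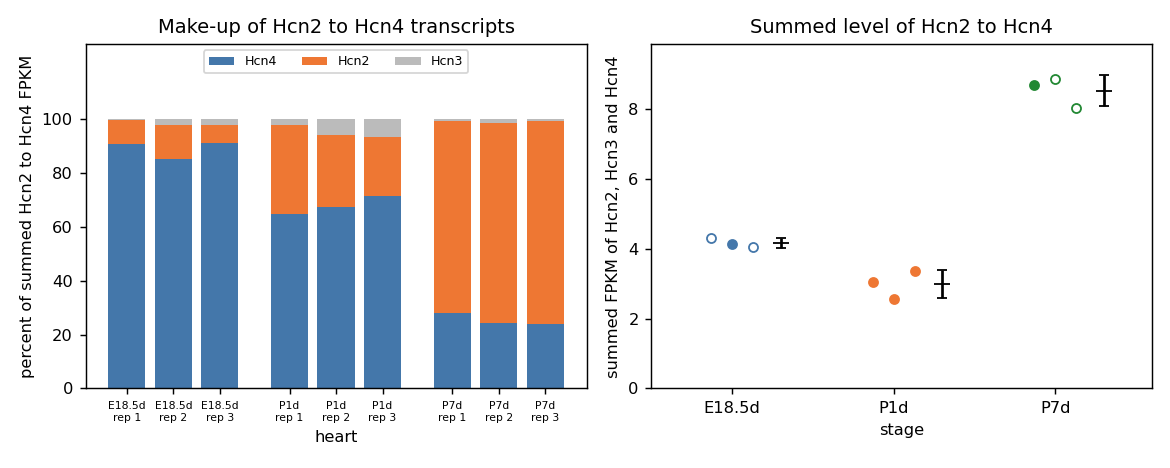
Left, the percent of the summed FPKM of 3 HCN genes from *Hcn4*, *Hcn2* and *Hcn3* in each of the 9 hearts; right, the summed FPKM by heart with mean and SD (n = 3; open points, *Xist* above 1 FPKM). The share of *Hcn2* was 71.1% to 75.4% in the P7d hearts and at most 33.0% in the earlier ones.

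Markers of the sinoatrial node, the tissue known for *Hcn4*, did not all move one way. Of 8 genes 6 were tested between E18.5d and P7d, of which 4 fell and 1 rose, with a median change of -0.84 against -0.17 over all genes. Over all genes 36.9% fell and 12.5% rose. From E18.5d to P1d, the step in which *Hcn4* fell, 2 of the 6 fell and 0 rose, against 27.6% and 18.4% of all genes. The median change in that step was -0.24 against -0.058 over all genes. From P1d to P7d 4 fell and 1 rose, against 28.6% and 15.5% of all genes. *Vsnl1*, a calcium sensor, fell by 1.46 ± 0.14 (limma adjusted p = 5.16e-05), although it and *Shox2* passed the minimum only through the earlier stages. *Shox2*, a transcription factor of the node, fell by 0.92 ± 0.13 (limma adjusted p = 0.000346), and *Tbx18*, which marks the head of the node, fell by 0.83 ± 0.08 (limma adjusted p = 3.17e-05). *Tbx3*, which represses the working muscle program, differed by 0.16 ± 0.11 (limma adjusted p = 0.242), and by 0.29 without E18.5d replicate 3 (limma adjusted p = 0.0235). The summed level of the list was 34.4 to 36.1 FPKM in E18.5d hearts, 30.7 to 31.3 FPKM in P1d hearts and 33.0 to 34.6 FPKM in P7d hearts, with overlap between E18.5d and P7d. It rested largely on *Smoc2*, a matricellular protein, which rose by 0.72 ± 0.08 (limma adjusted p = 9.72e-05) from a mean of 13.4 to 22.6 FPKM. Without *Smoc2* the sum was 20.3 to 23.3, 17.5 to 20.5 and 11.2 to 11.3 FPKM at the 3 stages. *Isl1*, a factor of cardiac progenitors and the node, was under the minimum, with means of 0.713, 0.610 and 0.160 FPKM. Atrial markers summed to 6531 to 7698, 6539 to 6944 and 3346 to 3573 FPKM at the 3 stages. Of these 7 genes 5 fell between E18.5d and P7d, against 36.9% of all genes. From E18.5d to P1d 3 fell and 2 rose, against 27.6% and 18.4%. Of 6 markers of ventricular conduction, 3 rose and 3 fell between E18.5d and P7d, against 12.5% and 36.9% of all genes. They summed to 146 to 166, 146 to 167 and 272 to 291 FPKM at the 3 stages. That sum rested largely on *Kcne1*, at 84.6 to 248 FPKM over all hearts. The part of these markers in the *Hcn4* result was not tested.

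*Atp1b1* encodes the main cardiac beta subunit of the sodium pump, which brings the alpha subunit to the cell surface (chr1:164437109-164458355, minus strand, GRCm38; ENSMUSG00000026576.12). Its level was 112.87, 113.47 and 115.14 FPKM in E18.5d hearts, 97.14, 88.76 and 108.69 FPKM in P1d hearts and 95.57, 103.43 and 108.27 FPKM in P7d hearts. The E18.5d hearts lay close together and above all others, while P1d and P7d overlapped. The difference from E18.5d was -0.22 ± 0.08 at P1d (limma adjusted p = 0.0453), just past the threshold, and -0.15 ± 0.08 at P7d (limma adjusted p = 0.129). With *Xist* in the fit the P1d difference was -0.17 (limma adjusted p = 0.225), and after median-of-ratios scaling the differences were -0.15 at P1d (limma adjusted p = 0.175) and 0.03 at P7d (limma adjusted p = 0.812). Leaving out any heart other than P1d replicate 3 or P7d replicate 1 also ended the call at P1d (limma adjusted p = 0.0517 to 0.129). The gene shares 575 exon bases with *Nme7* on the opposite strand, which did not exceed 7.63 FPKM. Whether strand was used in counting is not given in the sources used here.

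Within each heart *Atp1b1* came to 71.9% ± 0.858 (SD, n = 3), 69.0% ± 1.48 and 71.9% ± 1.56 of the beta subunits *Atp1b1*, *Atp1b2* and *Atp1b3* together at E18.5d, P1d and P7d. *Atp1b2* (means 10.7, 11.9 and 10.4 FPKM) and *Atp1b3* (33.8, 32.2 and 29.5 FPKM), the other beta isoforms tested, passed no test.

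Of the 7 FXYD pump regulators 4 were tested, and between E18.5d and P7d 1 rose and 1 fell, against 12.5% and 36.9% of all genes. *Fxyd1*, phospholemman, the main regulator of the cardiac pump, was the most abundant, with means of 529, 509 and 510 FPKM and no change past the test. *Fxyd6* rose by 0.80 ± 0.12 (limma adjusted p = 0.000478), from 9.31 to 17.0 FPKM. *Fxyd5*, dysadherin, fell by 0.61 ± 0.09 (limma adjusted p = 0.000473), from 26.0 to 16.7 FPKM. *Fxyd3* was at 0.29 to 2.05 FPKM without a change past the test.

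Taking the sodium channel, HCN, Na,K-ATPase and FXYD genes examined as 1 list of 28 genes, 14 were tested and 14 were under a mean of 1 FPKM, none of them above 0.99 FPKM in any heart. Between E18.5d and P7d, 4 rose, 2 fell and 8 did not pass, with a median change of -0.032 against -0.17 over all genes. From E18.5d to P1d, 5 rose and 2 fell, and the median was 0.19 against -0.058. From P1d to P7d, 2 rose and 2 fell, and the median was -0.12 against -0.093. Nothing is read from these counts and medians about the list, since 6 of the 14 genes, *Scn4a*, *Hcn2*, *Scn3a*, *Scn10a*, *Scn3b* and *Fxyd3*, reached a mean of 1 FPKM at only 1 or 2 stages. The split over all genes again depended on scaling. From E18.5d to P1d it was 2505 higher and 3755 lower, against 1172 and 4707 with columns of equal sum, and from P1d to P7d it was 2112 and 3901 against 2200 and 1728. In the fit of 5 hearts without the 4 *Xist* hearts, the 1 gene of the list that rose from E18.5d to P7d was *Hcn2*. The comparisons share hearts and are not independent of each other.

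**Figure D3:**
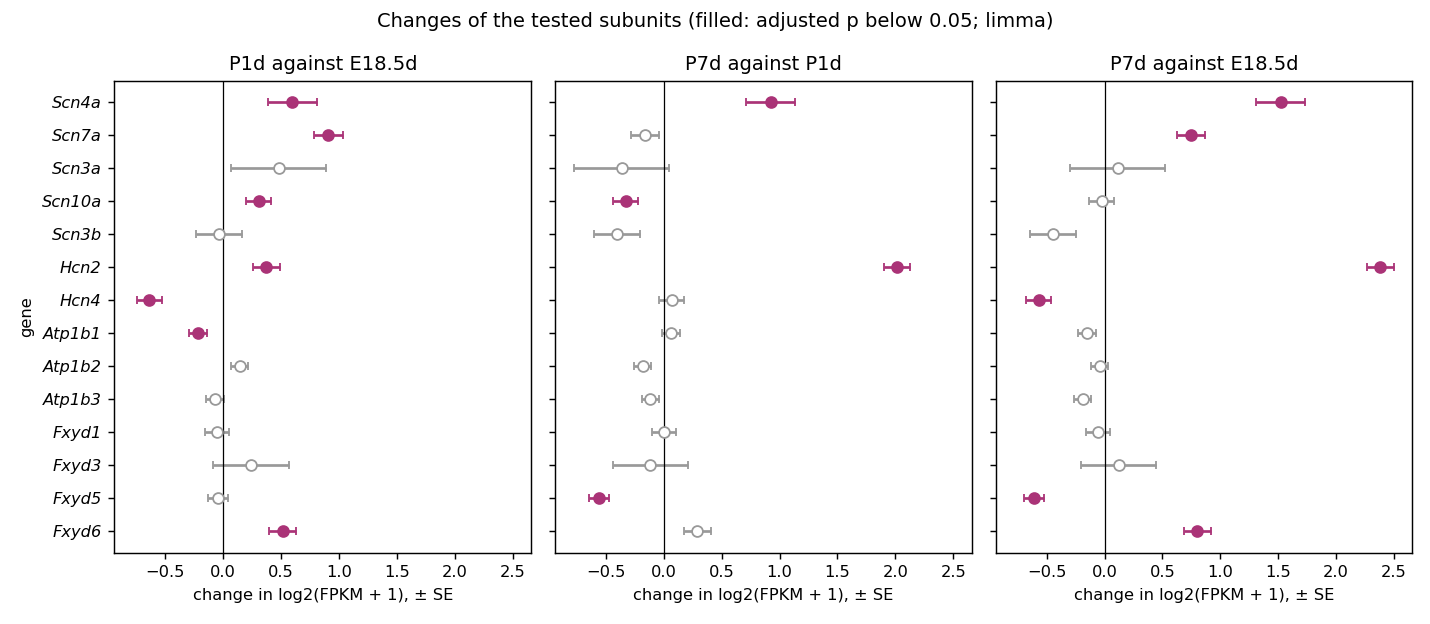
Change in log2(FPKM + 1) with its standard error (x axis) of the 14 tested genes (rows) in the 3 comparisons, with filled points for a limma adjusted p below 0.05. *Hcn2*, at 2.38, had the largest change from E18.5d to P7d, and *Fxyd5* (-0.61) and *Hcn4* (-0.57) were the 2 genes that fell.

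Among 11 partners of the sodium channel, 10 were tested. Between E18.5d and P7d 2 rose and 5 fell, against 12.5% and 36.9% of all genes. *Gpd1l*, a dehydrogenase-like protein that affects the sodium current, rose by 0.58 ± 0.06 (limma adjusted p = 9.89e-05), and *Fgf13*, an intracellular channel-binding factor, rose by 0.51 ± 0.08 (limma adjusted p = 0.000901). *Ank3*, ankyrin-G, which anchors the channel at the intercalated disc, fell by 0.83 ± 0.05 (limma adjusted p = 4.21e-06), from 77.0 to 43.0 FPKM. *Rangrf*, the trafficking factor MOG1, fell by 0.83 ± 0.11 (limma adjusted p = 0.000273), from 34.1 to 18.7 FPKM.

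Of 6 sodium exchangers and cotransporters 4 were tested, of which 1 fell between E18.5d and P7d, against 36.9% of all genes. It was *Slc8a1*, the cardiac sodium-calcium exchanger, which fell by 0.62 ± 0.07 (limma adjusted p = 0.000149) and was at 631 to 645 FPKM in E18.5d hearts, 565 to 671 FPKM in P1d hearts and 394 to 433 FPKM in P7d hearts. All 4 calcium channel genes examined were tested: 1 rose and 2 fell, against 12.5% and 36.9% of all genes. *Cacna1g*, a T-type channel, rose by 0.47 ± 0.09 (limma adjusted p = 0.00198), *Cacna1d*, the L-type channel of the node, fell by 0.46 ± 0.14 (limma adjusted p = 0.0217), and *Cacna1h*, another T-type channel, fell by 0.41 ± 0.10 (limma adjusted p = 0.00776). After median-of-ratios scaling both falls lost their calls, at -0.33 for *Cacna1d* (limma adjusted p = 0.0833) and -0.25 for *Cacna1h* (limma adjusted p = 0.0781). *Cacna1d* also lost its call when replicate 1 or 3 of E18.5d or 2 of P7d was left out.

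The protein-coding genes most like each member were ranked by Pearson's r of log2(FPKM + 1) over the 9 hearts, a description in which the points share 3 stages. For *Hcn2* they were *Rxrg* (r = 0.998), *Fgf16* (0.997) and *Trim72* (0.996). *Rxrg*, a retinoid X receptor, had means of 0.413, 1.03 and 8.84 FPKM, and *Trim72*, a membrane repair protein of striated muscle, 4.70, 6.27 and 40.6 FPKM. For *Hcn4* they were *Ndufaf2* (0.984), *1700066M21Rik* (0.983) and *Nup43* (0.982). *Ndufaf2*, an assembly factor of respiratory complex I, had means of 18.3, 8.53 and 9.60 FPKM. For *Scn4a* they were *Cd151* (0.973), *Kcp* (0.971) and *Gnb3* (0.963), and for *Atp1b1* they were *Prelid3b* (0.963), *Ppp5c* (0.961) and *Dnm1l* (0.957).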

How the data were processed

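Total RNA of 9 hearts, 3 each at E18.5d, P1d and P7d, was sequenced. The authors deposited FPKM, rounded to 2 decimals, for 48820 genes in 1 table. The labels list STAR and GRCm38 (mm10) among tools and builds, and the counting tool and annotation are not given in the sources used here. Identifiers were matched to GENCODE M21 of GRCm38 (48144 of 48820), which gave the positions. Some relatives of the members are not reported here, and the lists leave them out. The members and gene lists were chosen with earlier results of these data known. Named were the members, the tested genes of their families, at most 2 largest called changes in each direction among partners, exchangers and calcium channels, the 3 genes most like each member, and markers that bear on a member.

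The test was limma 3.58.1 in R 4.3.3 on log2(FPKM + 1), with a pseudocount of 1 and a mean of at least 1 FPKM, in 1 fit of the 3 stages (eBayes with trend) with Benjamini-Hochberg adjustment at 0.05. In a test on simulated data, 200 of 13618 genes were changed at P7d by at least 1 in size on the log2 scale. The fit called 188 of them at P7d against E18.5d and 185 at P7d against P1d, beside 20 and 5 unchanged genes. Smaller changes and a larger number of changed genes were not simulated. Depth was read from whole multiples of 1 fragment among low values (89.7% to 92.4% whole within 0.15, 30% by chance, largest error in simulated hearts 1.97%). Python 3.11.15, numpy 2.4.6, pandas 2.3.3 and matplotlib 3.10.9 were used. The alternatives changed 1 choice at a time: the pseudocount (0.1), the filter (none, or a minimum mean of 5 FPKM), the scaling (4 ways), no trend, only the stages compared, the replicate number as a block, *Xist* above 1 FPKM as covariate or as a reason to leave hearts out, a minimum log2 change of 1 in size, and omission of single hearts. The replicate numbers did not pair the hearts.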

Additional observations from a re-analysis of the deposited data

How the results depend on the processing

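*Hcn2* at P7d against either earlier stage kept its direction and its call under every alternative run. *Scn4a* at P7d against E18.5d kept its call except when hearts with *Xist* above 1 FPKM were left out (1.07). *Hcn4* at P1d and P7d against E18.5d kept its call when any single heart was left out. What limits the values is 1 heart per group without *Xist* at E18.5d and P7d, an FPKM scale that depends on the most abundant RNAs, and, for *Scn4b*, counts of few fragments.

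The calls of *Scn4a*, *Hcn2* and *Atp1b1* from E18.5d to P1d were lost under many alternatives, and the cause was not tested. For *Scn4a* the call was lost without a filter, with only the 2 stages compared and with a minimum absolute change of 1 (0.5963 each), with columns of equal sum (0.53), with *Xist* as covariate (0.50) and without the *Xist* hearts (0.27). For *Hcn2* it was lost with equal sums (0.32), the 2 stages alone or the minimum change of 1 (0.3731 each), the *Xist* covariate (0.3196) and without the *Xist* hearts (0.25). For *Atp1b1* it was lost without a filter, without trend, with the 2 stages alone and with the minimum change (-0.2159 each), with protein-coding sums (-0.20), median of ratios (-0.1458), quantile normalization (-0.143), the *Xist* covariate (-0.17) and without the *Xist* hearts (-0.21). Leaving out 1 heart gave 0.48 to 0.77 for *Scn4a* (call lost without replicate 1 or 3 of E18.5d, 2 or 3 of P1d, or 1 or 3 of P7d), 0.30 to 0.44 for *Hcn2* (lost when replicate 1 or 3 of E18.5d or 1 of P1d was left out) and -0.29 to -0.15 for *Atp1b1* (kept only without P1d replicate 3 or P7d replicate 1).

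Of the other calls, the minimum change of 1 ended *Scn4a* at P7d against P1d (0.92) and *Hcn4* at P7d (-0.57) and P1d (-0.64) against E18.5d, by its construction. Leaving out the *Xist* hearts ended *Scn4a* at P7d against P1d (0.79) and *Hcn4* at P7d (-0.39) and P1d (-0.58) against E18.5d. Differences that had passed no test changed sign. *Atp1b1* at P7d against E18.5d came to 0.014 with protein-coding sums, 0.027 by median of ratios and 0.00015 after quantile normalization, and at P7d against P1d to -0.034 without the *Xist* hearts and -0.0065 to 0.14 with 1 heart left out. *Hcn4* at P7d against P1d came to -0.0045 to 0.15 with 1 heart left out.

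The family genes that rose (4, 5 and 2 from E18.5d to P7d, from E18.5d to P1d and from P1d to P7d) were 1, 1 and 0 at a mean of at least 5 FPKM, 1, 0 and 1 without the *Xist* hearts, and 2, 0 and 1 with the minimum change of 1. From E18.5d to P1d they were 2 with equal sums, with the 2 stages alone or with the *Xist* covariate, and 2 to 4 with 1 heart left out (2 without replicate 1 or 3 of E18.5d, and 3 without replicate 1 or 3 of P1d or of P7d). Those that fell (2 in each comparison) were 1 in each at a mean of at least 5 FPKM, and 0 without the *Xist* hearts or with the minimum change. They were 4 from E18.5d to P7d with the 2 stages alone. From E18.5d to P1d they were 1 with protein-coding sums, median of ratios, quantile normalization, no trend, the 2 stages alone or the *Xist* covariate, and 1 to 2 with 1 heart left out (2 without P1d replicate 3 or P7d replicate 1). From P1d to P7d they were 1 under any of the 4 rescalings, and 1 to 3 with 1 heart left out (1 without P1d replicate 1 or any P7d heart). Counts over all genes moved as well. From E18.5d to P7d 1706 rose and 5025 fell, against 267 and 383 with the minimum change. At a mean of at least 5 FPKM they were 1264 and 3786 of 9130 tested. From P1d to P7d 2112 rose and 3901 fell, against 2200 to 3296 and 1728 to 2787 under the 4 rescalings. Nothing is read from the family counts. The hearts shared only a replicate number (correlations of same-numbered deviations -0.055 to 0.11). With the replicate number as a block, 1 gene fell from P1d to P7d, no call of a member changed, and *Scn10a* lost both of its calls.

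Among family genes without a call in the comparison, signs also changed. From E18.5d to P7d, protein-coding sums, median of ratios and quantile normalization gave 0.061, 0.068 and 0.12 for *Scn10a*, 0.1125, 0.1248 and 0.1158 for *Atp1b2*, and 0.11, 0.1238 and 0.25 for *Fxyd1*. Without the *Xist* hearts, *Scn3a* was -0.011 and *Fxyd3* -0.70. From E18.5d to P1d, median of ratios and quantile normalization gave 0.0020 and 0.027 for *Scn3b* and 0.016 and 0.0041 for *Fxyd1*. In the same comparison *Fxyd5* was 0.024 with median of ratios and 0.013 with the *Xist* covariate, *Fxyd1* was 0.0087 with that covariate, *Scn3b* was 0.0053 without the *Xist* hearts, and *Atp1b2* was -0.019 with equal sums. From P1d to P7d, equal sums, protein-coding sums, median of ratios and quantile normalization gave 0.1275, 0.1508, 0.1082 and 0.25 for *Fxyd1*, the first 2 gave 0.0088 and 0.031 for *Atp1b3*, and the last gave 0.021 for *Fxyd3*. With 1 heart left out, the ranges from E18.5d to P7d were -0.076 to 0.013 for *Atp1b2*, -0.13 to 0.052 for *Fxyd1*, -0.19 to 0.43 for *Fxyd3*, -0.054 to 0.017 for *Scn10a* and -0.32 to 0.40 for *Scn3a*. From E18.5d to P1d they were -0.12 to 0.0057 for *Fxyd1*, -0.10 to 0.027 for *Fxyd5* and -0.29 to 0.14 for *Scn3b*, and from P1d to P7d -0.077 to 0.11 for *Fxyd1* and -0.43 to 0.19 for *Fxyd3*. *Atp1b3* passed the test at P7d against E18.5d with only these stages in the fit (-0.19). For partners, exchangers, calcium channels and markers, leaving out the *Xist* hearts, which leaves 5, ended the calls of the genes followed through the alternatives. It did so for most genes called. Most changes stayed near their size (*Ank3* -0.82, *Rangrf* -0.96, *Slc8a1* -0.60, *Gpd1l* 0.56, *Tbx18* -0.90, *Shox2* -0.83, *Cacna1h* -0.40, *Cacna1d* -0.38, *Vsnl1* -1.27, *Smoc2* 0.73), and *Fgf13* (0.29) and *Cacna1g* (0.23) came to smaller ones. Members with a mean under 5 FPKM have no value at that filter.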
